A study of Mus musculus with 3 samples.

Results

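The 45 genes described here drive or restrain cell division: cyclins and their kinases, the kinase inhibitors, the pocket proteins with their E2F partners and Myc, the origin licensing machinery, the replication fork clamp with nucleotide supply enzymes, and the proteins of mitosis. They were chosen by name, as a list of 45 symbols, from 55536 gene entries. RNA carrying a poly(A) tail was sequenced from primary macrophages grown out of C57BL/6J mouse bone marrow. All 3 libraries belong to 1 group, stimulated for 480 minutes at 100 ng/mL, and are called replicates 1, 2 and 3. The stimulus is Lipid A, the membrane anchor of bacterial lipopolysaccharide, in the descriptions of the samples but lipoprotein A in their source and treatment fields, and this was not resolved. Sex and age are given as not collected, and no genetic change is listed. The 3 biosamples carry 1 donor record, so the spread between libraries measures only these samples and may be partly technical. With no untreated cells among the samples, every value is a level at 1 dose and 1 time, and no change from rest can be read from it.

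Division begins when D-type cyclins with their kinases phosphorylate the retinoblastoma family of pocket proteins and free E2F factors, which switch on genes for DNA synthesis. Before DNA synthesis, licensing loads the MCM helicase at origins through Cdc6 and Cdt1, and geminin later blocks reloading. Many genes of mitosis are switched on later by Myb and Fox factors through a short promoter element called the cell cycle homology region, often beside CCAAT boxes. Macrophages grown from bone marrow divide in response to colony stimulating factor, and bacterial stimuli of Toll-like receptors are known to halt this division.

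The most abundant of these genes were the clamp gene Pcna, the inhibitor Cdkn1a, the D cyclin Ccnd2 and the pocket protein gene Rbl1, whereas 7 of 9 mitosis genes missed the rule for detection. Levels are given as TPM, transcript abundances corrected for transcript length and scaled to the same total in each library, which can be compared between genes. Of the 45 genes, 29 (64.4%) reached 1 TPM in all 3 libraries, the rule used here for detected; among all protein-coding genes the share was 42.1%. Another 12 stayed below 1 TPM in every library: Ccne2, Ccna2, Ccnb1, Cdkn2a, E2f2, Cdc6, Rrm2, Aurka, Aurkb, Plk1, Bub1 and Bub1b. The remaining 4, Ccnb2, Mcm2, Top2a and Birc5, passed 1 TPM in some libraries only. The median level of the list was 3.68 TPM, beside 4.64 TPM for protein-coding genes with any count. The 4 leading genes together made up 68.6% of the summed TPM of the list. In RNA from a whole culture, fewer cells that express a gene and less RNA per expressing cell cannot be told apart.

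**Figure D1:**
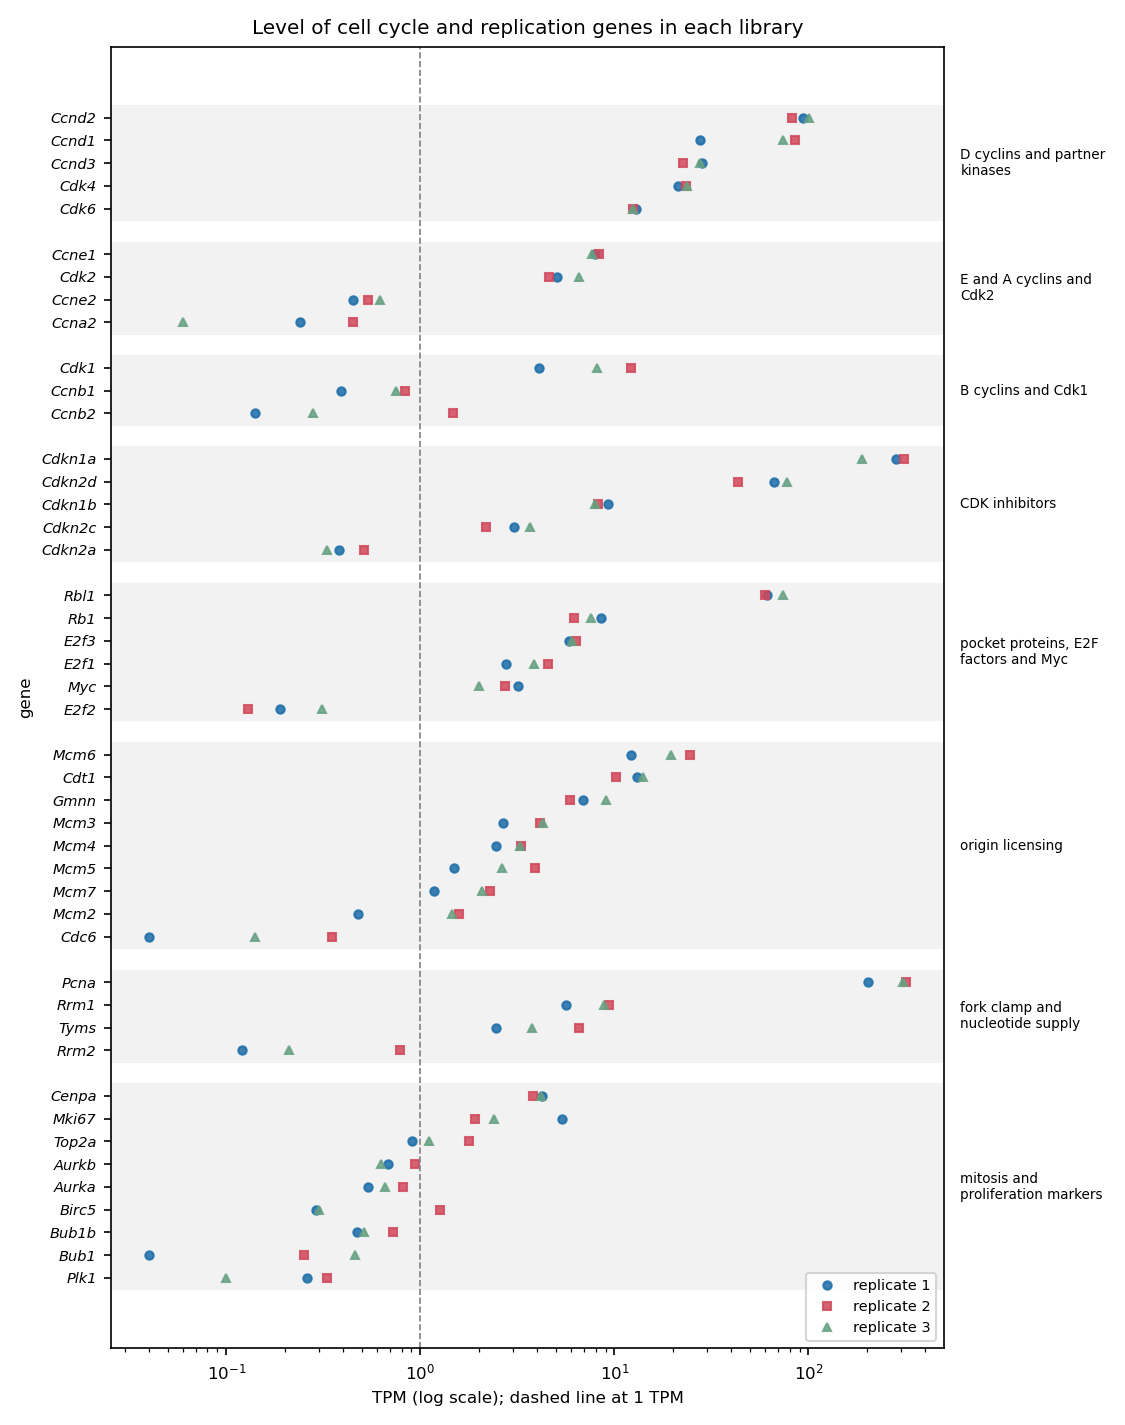
TPM on a log axis for each of the 45 genes, grouped by role, with 1 point per library and a dashed line at 1 TPM. Pcna, Cdkn1a, Ccnd2 and Rbl1 lie farthest right, and 12 genes, among them Plk1, Bub1 and Cdc6, lie left of the line in every library.

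The libraries held 26589042, 34344922 and 48356527 expected counts on gene entries, of which the 45 genes took 0.140%, 0.167% and 0.158%. All 10 macrophage markers were detected, with summed levels of 21855, 17309 and 18688 TPM in replicates 1, 2 and 3. Replicate 2 stood apart in granulocyte genes: the 14 markers of granulocytes and their precursors summed to 430.4 TPM there and to 28.4 and 25.4 TPM in replicates 1 and 3. Most of this sum was S100a9 (14.79, 236.69 and 12.41 TPM) and S100a8 (6.48, 128.23 and 6.72 TPM), and only 3 of the 14 were detected. All 6 granulocyte markers with enough counts to test were highest in replicate 2, beside 38.5% of all genes tested. High counts in replicate 2 helped markers to reach the 10 counts needed on average. Camp (3, 54 and 6 counts) reached them only through that library, so the 6 of 6 is only a description. Elane, Mpo, Ms4a3, Ly6g and Retnlg had no counts in replicates 1 and 3 and were at or under 0.56 TPM in replicate 2. The platelet factor gene Pf4 was also highest in replicate 2, at 228.02, 858.82 and 222.67 TPM. None of 7 stem and progenitor markers was detected, and their sum was 1.66, 1.03 and 0.980 TPM.

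D-type cyclins and their kinases were all detected. Ccnd2, the D cyclin with the highest mean here (ENSMUSG00000000184.12, chromosome 6, 127125162 to 127152193, minus strand of mm10), measured 93.53, 82.57 and 100.54 TPM in replicates 1, 2 and 3, a mean of 92.2 ± 9.06 TPM (SD, n = 3). Ccnd1, the D cyclin best known as a target of growth factor signals (ENSMUSG00000070348.5, chromosome 7, 144929931 to 144939925, minus strand), measured 27.68, 85.19 and 74.25 TPM. Replicate 1 was thus the low library for Ccnd1, while its Ccnd2 level lay between those of the other two. Ccnd3, the D cyclin with the lowest mean, stood at 26.1 ± 3.14 TPM (SD, n = 3), from 22.51 TPM in replicate 2 to 28.18 TPM in replicate 1. Within each library Ccnd2 exceeded Ccnd3, by a log2 TPM ratio of 1.82 ± 0.08 (SD, n = 3). The ratio of Ccnd1 to Ccnd3 was -0.03, 1.92 and 1.42, so these cyclins were close to equal in replicate 1 and Ccnd1 led in the other two. Of the kinases that D cyclins activate, Cdk4 stood at 22.8 ± 1.29 TPM and Cdk6 at 12.6 ± 0.269 TPM (SD, n = 3), and Cdk4 was higher in every library.

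Cyclins of the following phases were far lower than the D cyclins. Ccne1, a cyclin that activates Cdk2 at the entry to DNA synthesis (ENSMUSG00000002068.16, chromosome 7, 38097984 to 38107534, minus strand), measured 7.98, 8.29 and 7.63 TPM. Its close relative Ccne2 measured 0.45, 0.54 and 0.62 TPM, and the log2 TPM ratio of Ccne1 to Ccne2 was 3.67 ± 0.23 (SD, n = 3), with 0.1 TPM added to each level, and 2.55 with 1 TPM added. Ccne1 thus carried nearly all cyclin E transcript, and no library stood out for it in these values. In a second deposited quantification of the same libraries it measured 5.99, 9.24 and 6.57 TPM, highest in replicate 2. Ccna2, the cyclin of DNA synthesis and early mitosis, measured 0.24, 0.45 and 0.06 TPM, with replicate 3 lowest. Their kinase Cdk2 was detected in all libraries, at 5.05, 4.61 and 6.57 TPM, below Cdk4 in each by a log2 TPM ratio of 2.07 ± 0.25 (SD, n = 3).

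Of the mitotic kinase and its cyclins, the kinase alone was detected. Cdk1, the kinase that starts mitosis (ENSMUSG00000019942.13, chromosome 10, 69335146 to 69352938, minus strand), measured 4.11, 12.14 and 8.18 TPM, highest in replicate 2 and lowest in replicate 1. Ccnb1 and Ccnb2, the B cyclins that activate it, measured 0.39, 0.83 and 0.75 TPM and 0.14, 1.47 and 0.28 TPM. All 3 genes were thus highest in replicate 2 and lowest in replicate 1, and the values for Ccnb2 rest on 3, 43 and 11 counts. The promoter of Ccnb2 is printed because this gene was the farthest apart between libraries of the 42 with enough counts to test. It covers the 250 bases before the RefSeq start on GRCm38.p6, chr9:70421555-70421804, minus strand, read 5′ to 3′ along the gene. Capitals mark 1 copy of the cell cycle homology region, TTTGAA, and 3 CCAAT boxes.
Ccnb2: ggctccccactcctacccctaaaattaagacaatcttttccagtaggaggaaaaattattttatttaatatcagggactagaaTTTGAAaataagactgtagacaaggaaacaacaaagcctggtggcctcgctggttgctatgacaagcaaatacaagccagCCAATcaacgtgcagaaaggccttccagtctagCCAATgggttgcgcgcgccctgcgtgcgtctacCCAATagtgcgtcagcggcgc

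The kinase inhibitors included one of the 4 most abundant genes of the list. Cdkn1a, the inhibitor p21 that p53 induces (ENSMUSG00000023067.14, chromosome 17, 29090976 to 29100727, plus strand), measured 282.43, 312.13 and 189.66 TPM, a mean of 261 ± 63.9 TPM (SD, n = 3). Replicate 3 was the low library. Cdkn2d, an inhibitor of Cdk4 and Cdk6 (ENSMUSG00000096472.2, chromosome 9, 21288410 to 21291407, minus strand), measured 66.43, 43.37 and 77.14 TPM, lowest in replicate 2. Cdkn2c, of the same inhibitor family, stood at 2.97 ± 0.763 TPM (SD, n = 3) and was also lowest in replicate 2. Cdkn1b, the p27 inhibitor of Cdk2 complexes, stood at 8.50 ± 0.694 TPM (SD, n = 3), and Cdkn1a exceeded it by a log2 TPM ratio of 4.90 ± 0.34, a ratio of 29.8. Cdkn2d exceeded Cdkn2c in each library, the log2 TPM ratio of Cdkn2c to Cdkn2d being -4.34 ± 0.07 (SD, n = 3). Cdkn2a, whose locus encodes an inhibitor of Cdk4 and the unrelated Arf protein, measured 0.38, 0.51 and 0.33 TPM on 4, 7 and 6 counts, too few to compare libraries.

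Among the pocket proteins, Rbl1 was well above Rb1. Rbl1, the p107 protein that restrains E2F factors (ENSMUSG00000027641.13, chromosome 2, 157145893 to 157204534, minus strand), measured 61.23, 59.85 and 73.54 TPM, a mean of 64.9 ± 7.54 TPM (SD, n = 3). Rb1, the retinoblastoma protein itself, measured 8.53, 6.20 and 7.58 TPM, and the log2 TPM ratio of Rb1 to Rbl1 was -3.11 ± 0.25 (SD, n = 3). The 2 genes did not overlap in any library. Of the activating E2F factors, E2f1 measured 2.77, 4.56 and 3.83 TPM and E2f3 measured 5.84, 6.31 and 6.08 TPM. E2f3 was above E2f1 in each library, the log2 TPM ratio of E2f1 to E2f3 being -0.72 ± 0.30 (SD, n = 3). E2f2, the third activating factor, measured 0.19, 0.13 and 0.31 TPM. Myc, a growth-promoting transcription factor, stood at 2.65 ± 0.599 TPM (SD, n = 3), highest in replicate 1 and lowest in replicate 3.

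The origin licensing genes spanned from Mcm6, well detected, to Cdc6, close to 0. Mcm6, a subunit of the replicative helicase (ENSMUSG00000026355.11, chromosome 1, 128331590 to 128359664, minus strand), measured 12.23, 24.54 and 19.55 TPM. Mcm2, another subunit of the same ring (ENSMUSG00000002870.8, chromosome 6, 88883474 to 88898780, minus strand), measured 0.48, 1.59 and 1.45 TPM. Subunits of this helicase act in equal numbers as a ring, yet the log2 TPM ratio of Mcm6 to Mcm2 was 3.98 ± 0.39 (SD, n = 3), a ratio of 15.8, and 3.18 with 1 TPM in place of 0.1 TPM added. The other subunits lay between them: Mcm3 at 3.68 ± 0.889, Mcm4 at 3.01 ± 0.491, Mcm5 at 2.68 ± 1.21 and Mcm7 at 1.84 ± 0.592 TPM (SD, n = 3). All 6 subunits were lowest in replicate 1, in TPM and in scaled counts. The loader Cdc6 measured 0.04, 0.35 and 0.14 TPM on 3, 15 and 15 counts. Its partner Cdt1 and the inhibitor geminin, Gmnn, did not share this order: Cdt1 measured 13.01, 10.20 and 13.97 TPM, and Gmnn 6.91, 5.91 and 9.07 TPM. Both were lowest in replicate 2 in these TPM and in scaled counts, but not in a second deposited quantification of the same libraries. There both were lowest in replicate 1, with Cdt1 at 9.28, 9.70 and 11.5 TPM and Gmnn at 4.69, 5.63 and 7.60 TPM. Cdt1 exceeded Gmnn in each library by a log2 TPM ratio of 0.77 ± 0.14 (SD, n = 3).

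Promoters of Mcm2 and Mcm5 are printed as those of helicase subunits with 1 RefSeq promoter window that were at least 2-fold apart between libraries. They cover the 250 bases before the RefSeq start on GRCm38.p6, chr6:88898781-88899030, minus strand, and chr8:75109259-75109508, plus strand. Capitals mark 1 homology region and 1 CCAAT box for Mcm2. For Mcm5 they mark 2 overlapping E2F motifs, TTTCGCGC and GCGCCAAA (the reverse complement of TTTGGCGC), and 2 CCAAT boxes.
Mcm2: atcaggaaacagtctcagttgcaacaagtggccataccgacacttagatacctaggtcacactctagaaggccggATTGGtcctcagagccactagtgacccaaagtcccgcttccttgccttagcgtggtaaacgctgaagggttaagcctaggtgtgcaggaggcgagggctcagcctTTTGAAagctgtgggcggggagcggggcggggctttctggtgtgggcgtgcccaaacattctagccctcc
Mcm5: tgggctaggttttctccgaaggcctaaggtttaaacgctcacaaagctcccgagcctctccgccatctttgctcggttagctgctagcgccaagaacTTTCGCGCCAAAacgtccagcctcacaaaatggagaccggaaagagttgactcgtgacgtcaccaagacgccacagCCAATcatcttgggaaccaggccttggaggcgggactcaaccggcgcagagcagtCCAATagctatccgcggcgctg

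Pcna, the sliding clamp of the replication fork, had the highest mean of all 45 genes. It measured 203.35, 317.54 and 306.18 TPM (ENSMUSG00000027342.14, chromosome 2, 132249162 to 132253314, minus strand), a mean of 276 ± 62.9 TPM (SD, n = 3), with replicate 1 low. Part of its reads is shared with other entries by the model that made the counts; the copy Pcna-ps2 was given 20.78, 31.62 and 35.69 counts. The subunits of ribonucleotide reductase, which makes deoxynucleotides, were unequal: the large subunit Rrm1 measured 5.60, 9.33 and 8.79 TPM and the small subunit Rrm2 measured 0.12, 0.79 and 0.21 TPM. Their log2 TPM ratio was 4.31 ± 0.79 (SD, n = 3), or 2.70 with 1 TPM added, with Rrm2 on only 4, 32 and 13 counts. Tyms, the enzyme that makes thymidylate, measured 2.44, 6.60 and 3.76 TPM. All 4 genes of this group were lowest in replicate 1.

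Of the 9 genes of mitosis and proliferation, Mki67 and Cenpa were detected. Mki67, the gene of the proliferation antigen Ki-67 (ENSMUSG00000031004.8, chromosome 7, 135689784 to 135716361, minus strand), measured 5.38, 1.91 and 2.41 TPM on 880, 440 and 756 counts, highest in replicate 1. Top2a, the topoisomerase that untangles sister chromosomes (ENSMUSG00000020914.17, chromosome 11, 98992943 to 99024189, minus strand), ran the other way, at 0.91, 1.79 and 1.11 TPM. Birc5, the survivin subunit of the chromosomal passenger complex (ENSMUSG00000017716.15, chromosome 11, 117849251 to 117855743, plus strand), measured 0.29, 1.27 and 0.30 TPM on 7, 23 and 12 counts, also highest in replicate 2. The mitotic kinases Aurka and Aurkb stood at 0.670 ± 0.135 and 0.750 ± 0.166 TPM (SD, n = 3), and neither led in all libraries. Plk1, a kinase of spindle assembly, and Bub1, a kinase of the spindle checkpoint, measured 0.26, 0.33 and 0.10 TPM and 0.04, 0.25 and 0.46 TPM. With 8, 15 and 5 counts for Plk1 and 2, 9 and 5 for Bub1, no library can be called higher. Bub1b, the checkpoint protein BubR1, stood at 0.567 ± 0.134 TPM (SD, n = 3). Cenpa, the histone variant of centromeres, measured 4.25, 3.81 and 4.20 TPM and was the steadiest of the group in TPM. Pcna exceeded Mki67 by a log2 TPM ratio of 6.48 ± 1.11 (SD, n = 3), in each of 3 libraries.

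Promoters of Mki67, Top2a and Birc5 are printed because these were the mitotic genes at least 2-fold apart between libraries, and Mki67 had the opposite order. They cover the 250 bases before the RefSeq start on GRCm38.p6: chr7:135716380-135716629, minus strand, for Mki67, chr11:99024190-99024439, minus strand, for Top2a, and chr11:117848987-117849236, plus strand, for Birc5. Capitals mark 2 homology regions and 3 CCAAT boxes in Mki67, and 4 homology regions and 6 CCAAT boxes in Top2a. A homology region is TTTGAA or TTCGAA and a CCAAT box is CCAAT, each on either strand. None of the motifs searched is in the Birc5 stretch.
Mki67: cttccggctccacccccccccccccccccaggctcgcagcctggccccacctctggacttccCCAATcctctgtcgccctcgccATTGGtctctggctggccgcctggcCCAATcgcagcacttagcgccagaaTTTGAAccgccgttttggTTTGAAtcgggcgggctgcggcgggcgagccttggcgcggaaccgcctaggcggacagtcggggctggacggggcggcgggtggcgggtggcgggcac
Top2a: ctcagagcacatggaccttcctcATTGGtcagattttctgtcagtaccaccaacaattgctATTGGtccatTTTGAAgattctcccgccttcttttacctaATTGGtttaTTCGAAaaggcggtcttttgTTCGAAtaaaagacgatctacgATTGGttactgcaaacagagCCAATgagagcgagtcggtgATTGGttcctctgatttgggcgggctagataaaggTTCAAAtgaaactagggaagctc
Birc5: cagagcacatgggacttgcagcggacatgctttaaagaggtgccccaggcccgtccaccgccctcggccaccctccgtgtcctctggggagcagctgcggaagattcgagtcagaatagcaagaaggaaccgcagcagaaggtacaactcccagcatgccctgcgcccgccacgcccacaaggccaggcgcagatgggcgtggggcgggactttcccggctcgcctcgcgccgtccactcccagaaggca

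Differences between libraries were then tested on counts, since TPM alone does not show depth. A chi-square test (2 degrees of freedom) asked whether a gene's rounded expected counts departed from equal abundance after TMM scaling, a correction for library size and composition. Genes were tested where their counts averaged 10 or more. This held for 42 of the 45 genes, all but Cdkn2a, Plk1 and Bub1. At a Benjamini-Hochberg adjusted p of 0.05 over all genes tested, 31 of the 42 (73.8%) varied beyond counting error, beside 70.9% of all 12414 genes tested. The share was near the background and is no result about these genes. Examples were Pcna (adjusted p = 4.72e-118), Cdkn1a (1.11e-281), Mki67 (8.29e-94), Mcm6 (3.65e-37) and Ccnb2 (4.06e-10). Ccne1 (adjusted p = 7.09e-01), E2f3 (8.17e-01), Cdk4 (7.05e-02), Cenpa (3.41e-01), Aurka (5.13e-01) and Aurkb (4.28e-01) did not pass. Nor did Ccne2 (5.25e-01), Ccnb1 (7.27e-02), Mcm4 (8.99e-02), Cdc6 (1.43e-01) and Bub1b (2.00e-01). At the depth of Aurka and Aurkb, differences of the size seen were not detectable. Without replicate 2, 16 of 37 genes varied, beside 42.7% of all genes.

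In size, 13 of the 42 genes (31.0%) were 2-fold or more apart between the highest and the lowest library, beside 16.1% of all genes tested. They were Ccnd1, Ccna2, Ccnb2, E2f2, Mcm2, Mcm5, Mcm7, Cdc6, Rrm2, Tyms, Mki67, Top2a and Birc5, and all but Cdc6 also passed the chi-square test. The folds, on scaled counts with 0.5 added to each count, were 8.70 for Ccnb2, 6.46 for Ccna2, 5.06 for Rrm2, 3.10 for Cdc6 and 3.08 for Mcm2. For Ccnd1 and Mki67, which rest on many more counts, the folds were 2.94 and 2.85. Low counts hold a good part of this list: of the 26 genes averaging at least 100 counts, 4 were 2-fold apart (Ccnd1, Mcm5, Mki67 and Top2a), beside 6.77% of all genes at that depth. Leaving out replicate 2 lowered the count to 4 (background 5.42%), leaving out replicate 1 to 6 (8.17%) and leaving out replicate 3 to 11 (11.8%).

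**Figure D2:**
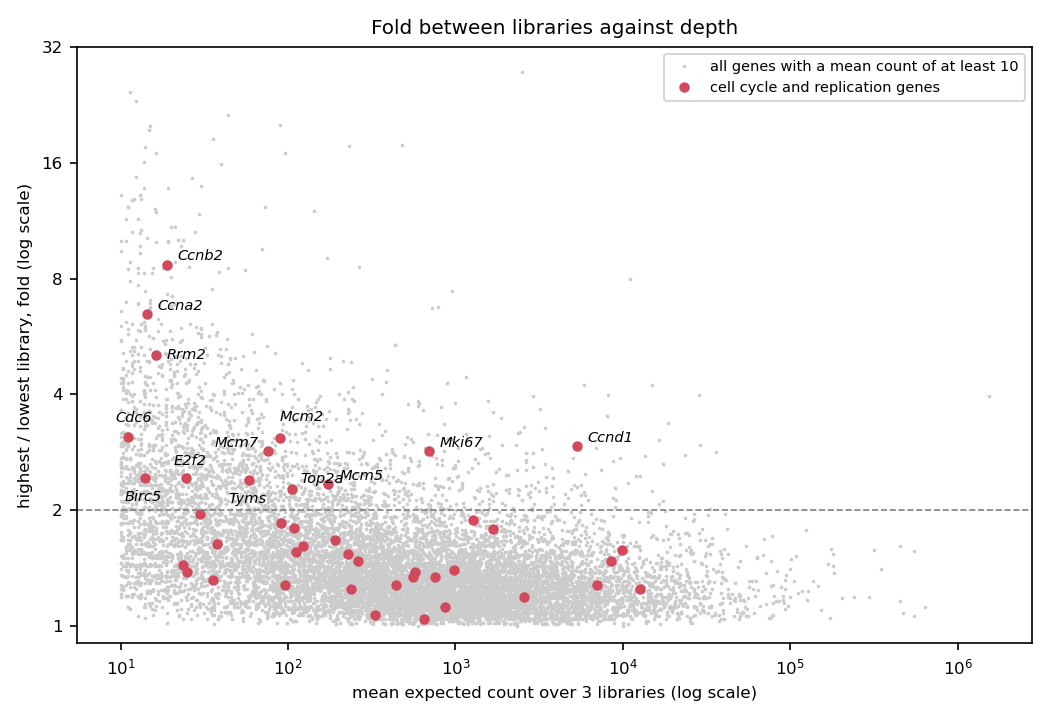
Fold between the highest and lowest library against mean expected count, both on log axes, for all genes averaging at least 10 counts (grey; 31 of them lie above the top of the axis at 32-fold) and for 42 cell cycle and replication genes (red). The 13 named genes lie on or above the dashed line at 2-fold, most of them at low counts, while Ccnd1 and Mki67 stand out at high counts.

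In scaled counts, 11 of the 13 were highest in replicate 2, E2f2 was highest in replicate 3 and Mki67 in replicate 1. Of all 2001 genes that far apart, 40.3% were highest in replicate 2. The filter itself shaped this count: Ccnb2, Ccna2, Rrm2, Cdc6 and Birc5 averaged 10 counts only with replicate 2 included. Without it 37 genes were tested, so the 11 of 13 is only a description. Over all 42 genes tested, 7 were highest in replicate 1 (background 33.9%), 18 in replicate 2 (38.5%) and 17 in replicate 3 (27.7%). This split moved with the scaling: by library totals the counts were 6, 26 and 10, with backgrounds of 27.1%, 51.4% and 21.4%, and by TPM they were 7, 24 and 11, with backgrounds of 30.7%, 45.2% and 24.2%. Of the 26 genes averaging at least 100 counts, 6 were highest in replicate 1, 7 in replicate 2 and 13 in replicate 3. The shares of all genes at that depth were 34.0%, 38.3% and 27.7%. In scaled counts, the share of the 42 genes highest in replicate 2 (42.9%) was near the background and is no result about these genes. Replicate 1 was lowest for 22 of 42 genes (52.4%), beside 37.8% of all genes.

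Replicate 1 was the low library for several roles. By scaled counts, replicate 1 was lowest for 7 of 9 licensing genes, for all 4 genes of the fork clamp and nucleotide supply, and for all 3 of Cdk1 and the B cyclins. Of these genes, Mcm4, Cdc6 and Ccnb1 did not pass the chi-square test, and replicate 1 was lowest for 37.8% of all genes. Summed levels of the 3 groups were 40.4, 56.2 and 56.4 TPM, 212, 334 and 319 TPM, and 4.64, 14.4 and 9.21 TPM in replicates 1, 2 and 3. The kinase inhibitors did not share this order: none of the 4 tested was lowest in replicate 1. Of the 4, 3 were lowest in replicate 2 in scaled counts, beside 39.1% of all genes, which is only a description of few genes. In TPM, Cdkn1b of these 3 was lowest in replicate 3 instead, at 9.29, 8.24 and 7.98 TPM. The inhibitors summed to 362, 366 and 279 TPM. Replicate 2 was also the library with 430.4 TPM of granulocyte markers and with the highest Pf4, and replicate 1 the library with the fewest counts. The 6 osteoclast markers summed to 86.8, 218 and 114 TPM, with nearly all of it from Acp5 (79.60, 208.60 and 102.58 TPM). Of the 6, 3 were detected. The other detected markers, Nfatc1 (5.45, 5.32 and 7.24 TPM) and Ctsk (1.52, 2.87 and 3.61 TPM), were highest in replicate 3, unlike Acp5. None of the 7 fibroblast and stromal markers was detected, and their sum was at most 2.31 TPM, in replicate 2. Of these, Col1a1 (4, 53 and 59 counts) and Col3a1 (0, 35 and 30 counts) were lowest in replicate 1, and Pdgfrb (111, 58 and 47 counts) was highest there. Whether RNA of such cells or depth has a part in the high values of replicate 2 or the low ones of replicate 1 was not tested.

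**Figure D3:**
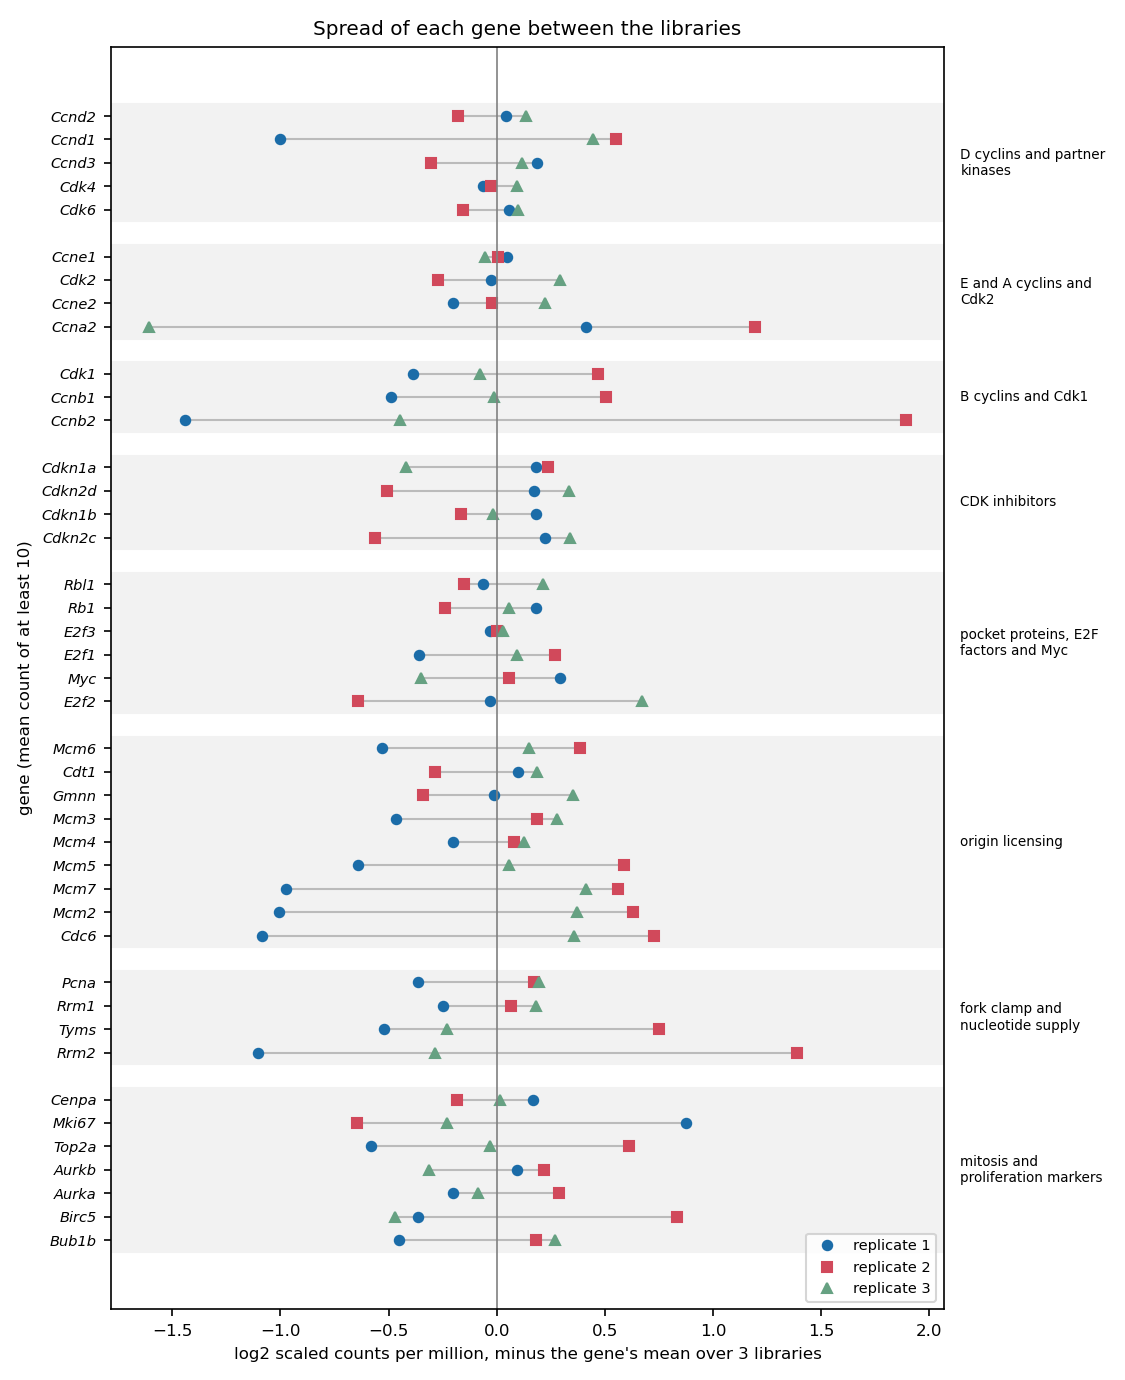
Log2 scaled counts (counts relative to the TMM-scaled library total) in each library minus the gene's mean over the 3 libraries, for the 42 genes averaging at least 10 counts, grouped by role (no count added, so low genes spread wider here than in the folds given in the text). Replicate 1 lies left for the helicase subunits, Pcna, Rrm1, Rrm2, Tyms, Cdk1 and the B cyclins, and right for Mki67.

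**Figure D4:**
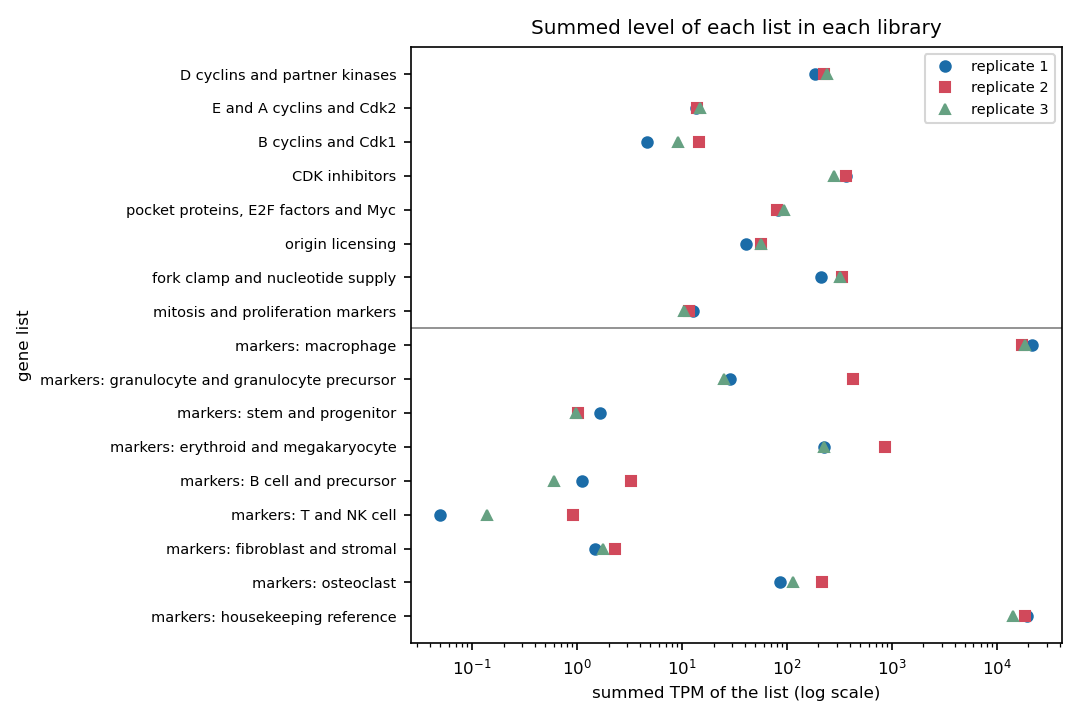
Summed TPM on a log axis for each role (above the line) and each marker list of other cells and of macrophages (under the line), with 1 point per library. The granulocyte list stands at 430.4 TPM in replicate 2 against 28.4 and 25.4 TPM, while the sums of the roles differ less.

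Levels of neighbouring genes mostly could not be told apart. With the 45 genes ranked by mean TPM, a pair counted as apart when its log2 TPM ratio had the same sign in 3 of 3 libraries and a mean over 2 SD. Of the 44 neighbouring pairs, 4 were apart: Cdkn1a over Ccnd2 (1.48 ± 0.51), Ccnd2 over Rbl1 (0.51 ± 0.09), Cdkn2d over Ccnd3 (1.22 ± 0.27) and Cdt1 over Cdkn1b (0.53 ± 0.25; all SD, n = 3). Of 18 pairs chosen by function, 14 were apart. The 4 that were not were Ccnd1 and Ccnd3, Ccnb1 and Ccnb2, Aurka and Aurkb, and Bub1 and Bub1b. A two-sided exact sign test on 3 libraries cannot go below p = 0.25, so these are descriptions.

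The transcripts behind the levels were mostly the same in both deposited quantifications. Each of the 29 detected genes has 2 or more annotated transcripts. For 29 of 29 the transcript with the largest share of the gene's TPM was the same in both quantifications. It was the same in all 3 libraries for 26 of 29, all but Cdk1, Mcm7 and Tyms. For Pcna, Mki67 and Cdkn1a the leading transcript held 99.2%, 98.7% and 98.2% of the level, and Ccnd1-201 held 94.1%. It held at least 80% of the level for 15 of 29 genes. The quantifications differed in the size of some shares: Mcm3-201 held 68.7% of the Mcm3 level in the first and 91.2% in the second. Myc-201 and Myc-205 were given the same values in each library and cannot be told apart. Each held 19.10%, 25.37% and 21.89% of the Myc level, and the leading Myc-204 held 48.11%, 27.20% and 35.36%. Taken as 1 transcript, Myc-201 and Myc-205 would lead in replicates 2 and 3, so the lead of Myc-204 depends on this split. For 27 of 29 genes the leading transcript is annotated as protein-coding.

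The exceptions were Cenpa and Tyms. Cenpa-202, a transcript annotated for nonsense-mediated decay, held 60.22%, 61.52% and 61.58% of the Cenpa level, and protein-coding transcripts held 29.6% ± 0.707 (SD, n = 3). On coding transcripts alone Cenpa thus measured 1.29, 1.10 and 1.24 TPM, in the same order of libraries as the gene total. For Tyms the coding share was 11.9%, 59.8% and 14.1%. Coding levels were 0.290, 3.95 and 0.530 TPM, so replicate 2 stood farther above the others than in the gene total. On coding transcripts alone Tyms missed the rule for detection. In replicate 2, 44.62% of the Tyms level was on Tyms-209, a coding transcript of 447 bases with only 11.81 counts. The quantifications differed too: the coding Tyms-201 held 4.66% in replicate 1 in the first and 33.6% in the second. Part of the Cdk1 level was on Cdk1-204, a transcript with a retained intron, with 35.23%, 33.45% and 47.13% on only 5.55, 18.73 and 24.55 counts. Protein-coding Cdk1 measured 2.66, 5.16 and 3.45 TPM, still highest in replicate 2. Short transcripts get a high TPM from few counts, and these shares carry that error.

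**Figure D5:**
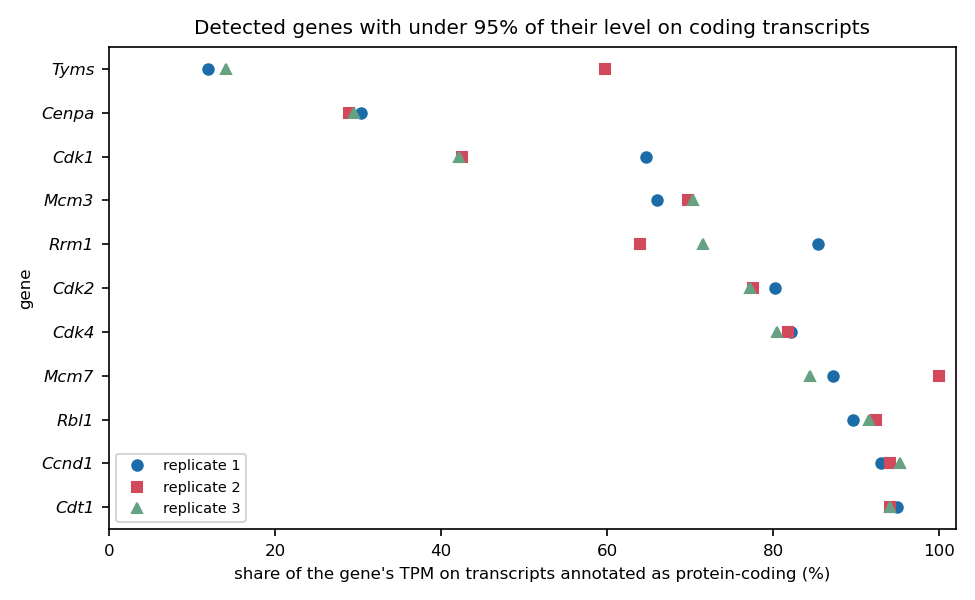
Share of each gene's TPM on transcripts annotated as protein-coding, in percent, for the detected genes whose mean share was under 95%, with 1 point per library. Cenpa lies near 29.6% in all libraries, whereas Tyms lies at 59.8% in replicate 2 and at 11.9% and 14.1% in the others.

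Promoter motifs were counted by role. RefSeq promoter windows of 300 bases on GRCm38.p6, from 250 before to 50 after the start, were found for 36 of the 45 genes, in 43 windows. The motifs searched on both strands were the homology region (TTTGAA or TTCGAA), E2F motifs (TTTCCCGC, TTTGGCGC or TTTCGCGC) and the CCAAT box, and they may overlap one another. E2F motifs were in 12 of the 43 windows (27.9%), beside 1.84% of all 32851 windows, CCAAT boxes in 28 (65.1%), beside 37.4%, and homology regions in 13 (30.2%), beside 19.2%. Homology regions were in 7 of 8 windows of the mitosis genes, all but that of Birc5, and E2F motifs in 0 of 8. In contrast, 6 of 8 windows of licensing genes held an E2F motif: those of Mcm3, Mcm5, Mcm6, Mcm7, Cdc6 and Cdt1. None of the 4 windows of Pcna, Rrm1, Rrm2 and Tyms held a homology region or an E2F motif as spelled here. Mki67 and Top2a both hold homology regions and CCAAT boxes in the sequences printed with them, and their order of libraries was opposite. A match is a description of the sequence and not a bound site.

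The wider pathway, 98 genes from lists of cell cycle genes, replication genes and p53 with its targets, was measured in the same libraries. Of these 98 genes, 64 were detected, beside 42.1% of all protein-coding genes. Of the 89 with enough counts to test, 57 varied beyond counting error, a smaller share than the 70.9% of all genes and no result about these genes. Samhd1, which breaks down deoxynucleotides, measured 1945.68, 1806.79 and 1869.24 TPM, the highest of these lists and above every one of the 45 genes. Next to the E2F factors, Max, the partner of Myc, stood at 308 ± 42.2 TPM and Mxd1, which competes with Myc for Max, at 139 ± 22.6 TPM (SD, n = 3), whereas Myc stood at 2.65 TPM. E2f4, an E2F factor of repressor complexes, stood at 23.3 ± 2.65 TPM (SD, n = 3). Of the other mitosis genes 7 of 21 were detected, close to the 42.1% of all protein-coding genes. Pttg1, the gene of securin, was the highest of these mitosis genes, at 279.64, 255.65 and 286.04 TPM. Tpx2, a spindle assembly factor, stood at 63.1 ± 18.7 TPM (SD, n = 3). Ube2c, an enzyme that marks mitotic cyclins for destruction, measured 0.24, 4.31 and 0.87 TPM, with replicate 2 high as for Ccnb2. All 11 genes of the p53 list, which holds p53 itself and its targets beside Cdkn1a, were detected, beside the same 42.1%. Among them were Mdm2, which degrades p53, at 140.32, 98.51 and 132.83 TPM, and Bax, a cell death effector, at 101 ± 8.41 TPM (SD, n = 3).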

How the data were processed

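RNA was measured in 3 libraries of 1 group. The samples' readme files name mm10 and GENCODE M21 as genome and annotation. The aligner is not given in the sources used here, nor are the programs. The expected counts deposited by the authors are fractional counts assigned by a model to genes and transcripts, unscaled. The deposited TPM values are scaled for transcript length and library total, per the file headers. The percent values deposited per transcript give its share of the gene's TPM. A second deposited quantification of transcripts gave estimated counts and TPM, and was summed per gene.

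From these, expected counts were rounded, TMM factors were taken from edgeR 4.0.16 (R 4.3.3), and the chi-square test was run in Python 3.11.15 with scipy 1.17.1, over genes averaging at least 10 counts. Gene entries without a name (86) were kept, and spike-ins were left out. Ratios used log2(TPM + 0.1), and folds 0.5 added counts. Of the 45 genes, 10 had fractional gene counts, since reads are shared with other entries. The test was tested on simulated data. With 1 group, no contrast, replicate pairing, correlation or outlier test was made. All 45 genes could be named; of the wider lists, only the 3 highest by mean TPM and the 2 farthest apart between libraries, beside marker genes. The 45 genes, chosen by name, and the lists and tests were set with earlier results of these data known. Alternatives covered thresholds, pseudocounts, scaling (DESeq2 1.42.0 size factors, library totals), count minimums, the second quantification and leaving out each library; protein-coding transcripts only was added after seeing the data.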

Additional observations from a re-analysis of the deposited data

How the results depend on the processing

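Counts of 45 genes varied most with depth and with replicate 2. The number detected was 17 at a threshold of 5 TPM against 29 at 1 TPM. The median level on the log2 scale was 1.92, 2.23 with 1 TPM added and 1.41 in the second quantification. Genes varying beyond counting error numbered 16 to 25 with 1 library left out, against 31. The share of all genes fell as well, from 70.9% to 56.5%, 42.7% and 61.1% without replicates 1, 2 and 3. This drop is thus no result about the 45 genes. Genes 2-fold apart numbered 4 at a mean count of at least 100, and 4 to 11 with 1 library left out, against 13; the lowest value of both ranges came without replicate 2, and fewer samples were tested. Genes highest in replicate 2 numbered 7 at a mean count of at least 100, where 26 genes were tested, against 18 of 42. Genes highest in replicate 3 numbered 10 by library totals and 11 by TPM, against 17; the cause was not tested. The other 44 alternatives for these counts stayed within the margins set, 1.5 times for counts. For single pair ratios, 83 alternatives stayed within 1 SD and 7 moved farther without a change of sign. With 1 TPM added these were Ccne1/Ccne2 (2.55), Rrm1/Rrm2 (2.70), Mcm6/Mcm2 (3.18) and Cdkn2c/Cdkn2d (-3.97), and in the second quantification Ccne1/Ccne2 (3.37), Ccnd2/Ccnd3 (1.98) and Cdk4/Cdk6 (0.72). No paired analysis was possible because the samples form 1 group. Depth limits Cdkn2a, Plk1 and Bub1, which have a mean count under 10.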

Other observations

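Among regulators of the cyclin-dependent kinases outside the 45 genes, Cdkn1c, the p57 inhibitor, measured 10.78, 19.18 and 37.93 TPM, highest in replicate 3 and 3.13-fold apart in scaled counts. Cks1b, a small subunit of cyclin-dependent kinase complexes, measured 1.18, 3.32 and 1.60 TPM, highest in replicate 2. Cdk7, the kinase that activates other cyclin-dependent kinases, stood at 11.9 ± 0.586 TPM and its cyclin Ccnh at 6.62 ± 1.30 TPM (SD, n = 3). The origin recognition genes Orc4 and Orc3 stood at 24.5 ± 1.84 and 14.8 ± 0.359 TPM, and Gins4, part of the active helicase, at 14.1 ± 2.67 TPM (SD, n = 3). The clamp loader genes Rfc2 and Rfc3 stood at 42.1 ± 8.75 and 32.5 ± 5.64 TPM (SD, n = 3). Dut, which keeps uracil out of DNA, measured 0.29, 1.55 and 0.48 TPM, and Pole, a replicative polymerase, 0.01, 0.22 and 0.21 TPM.

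Incenp, a partner of Birc5 and Aurkb in the chromosomal passenger complex, measured 24.99, 13.45 and 18.92 TPM, highest in replicate 1, where Birc5 stood at 0.29 TPM. Gadd45a, a stress-induced p53 target, measured 7.14, 3.45 and 3.16 TPM, and Mycl, a relative of Myc, 1.94, 1.03 and 0.78 TPM. Both were highest in replicate 1, as were 33.9% of all genes tested in scaled counts, so these are descriptions of single genes.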
